A study of Mus musculus with 18 samples.

Results

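The response of p65 knock-out (p65 KO) cells to 45 min of tumour necrosis factor alpha (TNF) was measured in 2 TNF-treated and 2 untreated libraries, taken by their column labels from 18 libraries in all. The study read RNA from immortalised mouse embryonic fibroblasts of 3 genotypes: p65 KO, IKK2 KO (labelled IKK beta knock-out) and wild type (WT). Each genotype was left untreated or given TNF at 10 ng/ml for 45 or 90 min, with 2 libraries per group. The p65 KO cells given TNF for 45 min are set below against untreated p65 KO cells, and then against the same step in IKK2 KO and WT cells and against p65 KO cells at 90 min. The labels do not say whether a line is 1 clone, how each was immortalised, or whether the 2 libraries of a group came from separate cultures. The p-values therefore measure the spread between these libraries, which may be technical. Untreated p65 KO and WT cells differed in 80.8% of the genes tested, so where responses of lines are compared, the loss of p65 cannot be told apart from other differences between the lines.

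TNF binds its receptor and activates the IκB kinases, which release dimers of the NF-κB family into the nucleus, and p65 (encoded by Rela) is the subunit that carries most of their activating function. The same receptor also activates the MAP kinases JNK and p38, which act on AP-1 factors of the Jun, Fos and ATF families and on immediate-early genes. Immediate-early genes are switched on within minutes from factors already present, and many of their products, such as phosphatases and RNA-decay proteins, shut the signal down again.

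Levels are counts scaled to library size (CPM). Changes are on the log2 scale with their standard error, and a gene is called at a Benjamini-Hochberg adjusted p under 0.05 in edgeR's quasi-likelihood test over 16322 genes. Rela stood at 5.33 and 5.80 CPM in TNF-treated p65 KO cells, against 5.25 and 6.11 CPM in untreated p65 KO cells, and the groups overlapped (−0.03 ± 0.12, adjusted p = 0.97). Untreated IKK2 KO cells had 72.4 and 67.0 CPM, and untreated WT cells 63.2 and 64.4 CPM. The 4 p65 KO libraries held 18.6 to 23.2 M counts (16.7 to 23.5 M over all 18). Of 12 fibroblast markers, Vim, which encodes an intermediate filament protein, had 2290 to 2350 CPM in these libraries and Col1a1, which encodes collagen, 463 to 483 CPM. Thy1 and Lum, also fibroblast markers, had at most 1 count in any of the 4. The marker S100a4 was the 1 of 12 that rose (0.26), a call that was not put to the alternative analyses used below. Summed levels of epithelial, endothelial, myeloid, lymphoid and adipocyte markers stayed below 2 CPM, and muscle markers lay between 5 and 6 CPM. The neural list was led by Sox2, a stem and neural progenitor factor, with 166 and 164 CPM in TNF-treated and 165 and 160 CPM in untreated cells. Mitochondrial genes took 9.65 and 9.63% of the counts in TNF-treated libraries, against 11.3 and 11.6% in untreated libraries, and the part of this in the results below was not tested.

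In p65 KO cells 45 min of TNF raised 191 genes and lowered 80, which is 1.66% of the genes tested. The same step called 8.76% of the genes in IKK2 KO and 12.2% in WT. Most changes in p65 KO were small, and 39 genes (0.239%) changed at least 1.5-fold. The 20 largest named rises were AP-1 and other immediate-early genes, MAP kinase phosphatases, stress and RNA-decay genes, 2 NF-κB feedback genes, Cxcl1, Lif and Ptgs2, and outside the lists Tmem158, Rpl24 and Phlda1. Named rises and falls were taken only where the 2 groups did not overlap in CPM, so their separation is a condition of the choice. The call held for 17 of these 20 in every alternative analysis, and the exceptions are given where they appear. Losses are given below by the library left out. DESeq2's Wald test, an alternative to edgeR's test, also lost calls with all libraries kept. Among rises named below these were Tmem158, Zfp36, Sik1, Myc, Spry2, Ppp1r15a, Insig1, Vegfa, Hist1h2bk and Hist2h4. Among falls they were Mapk9, Gabre, Kcnj2, Cavin4, Slc7a2, Ftx, Nfil3 and Spaca6. Leaving out 1 library at a time left 97 calls without untreated library b, 125 without either TNF-treated library and 186 without untreated library a, and 71 of the 271 calls, 55 rises and 16 falls, were made in every such fit.

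**Figure D1:**
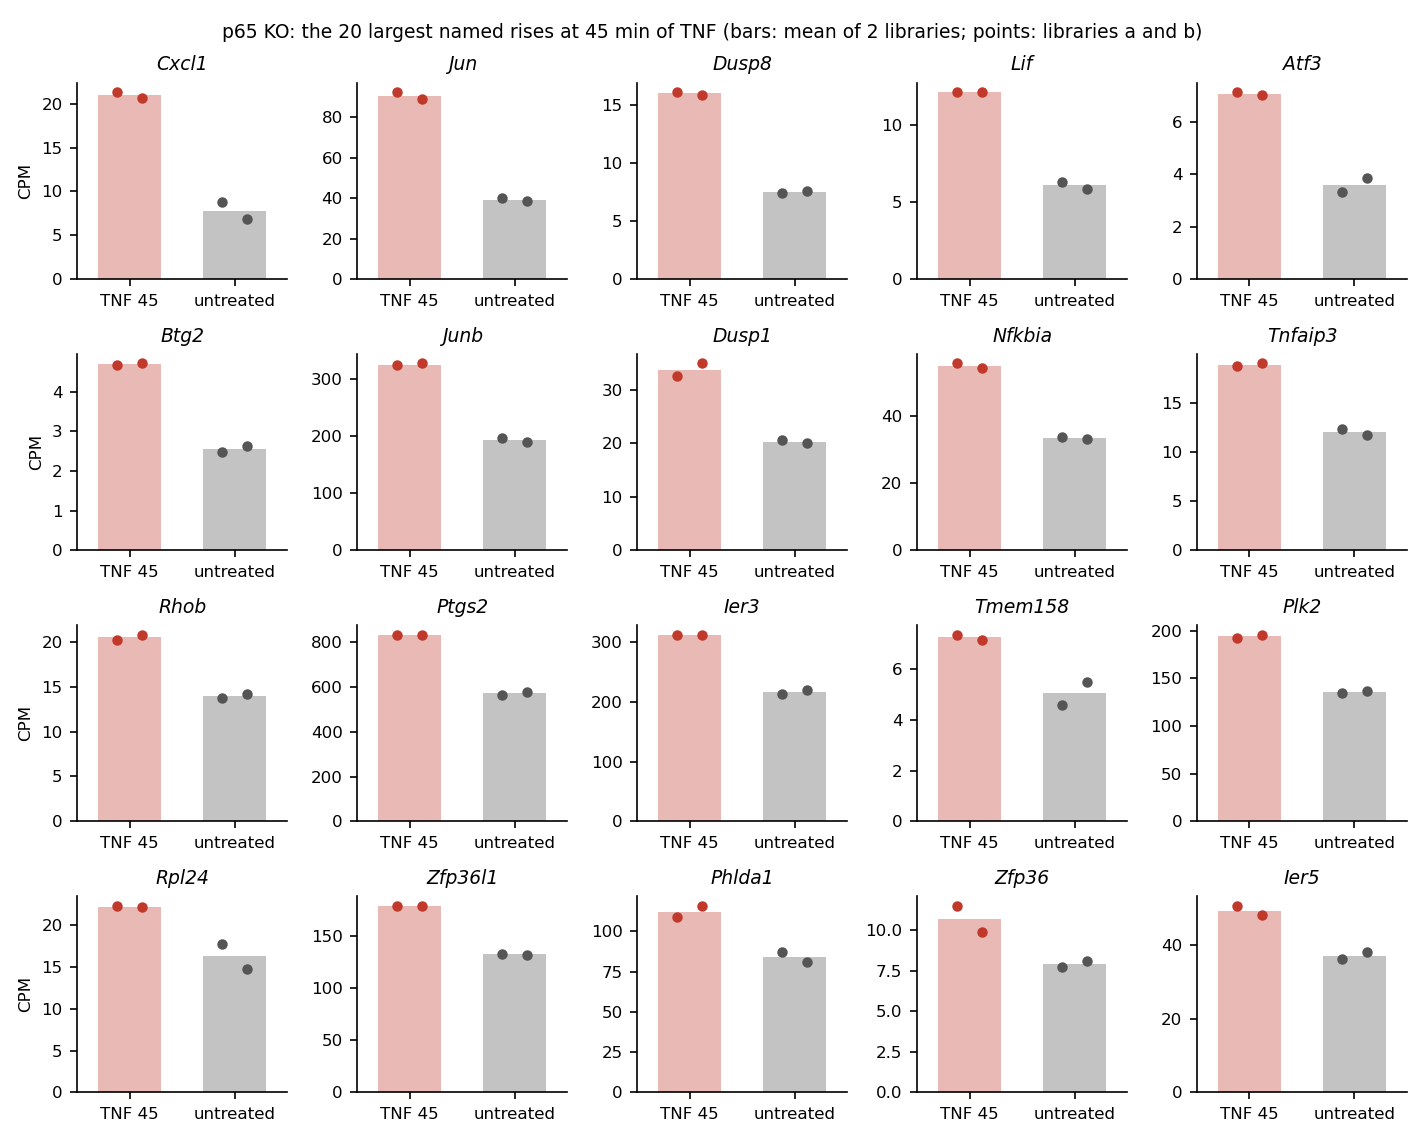
CPM (linear axis from 0) of the 20 largest named rises in p65 KO cells, with TNF for 45 min at left and untreated at right; bars are means of 2 libraries and points the libraries. The naming rule required groups that do not overlap, and panels run in order of log2 change. The first is Cxcl1, at 21.3 and 20.7 CPM with TNF and 8.81 and 6.81 CPM untreated. The last is Ier5, at 50.6 and 48.0 CPM with TNF and 36.1 and 38 CPM untreated.

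Genes of AP-1, the transcription factor that JNK acts on, moved in 1 direction: 5 of 12 tested members rose and 0 fell, with a median change of 0.34 against 0.00 over all genes. Rises made up 1.17% of all genes tested and falls 0.49%. Jun (gene ID ENSMUSG00000052684, GRCm38 chromosome 4, 95049034 to 95052222), which encodes c-Jun, had 92.3 and 88.8 CPM in TNF-treated and 40.0 and 38.6 CPM in untreated cells. Its change was 1.20 ± 0.05 (adjusted p = 7.9e-23), the second largest of the named rises. Junb, which encodes another Jun protein, had 324 and 327 CPM in TNF-treated and 196 and 190 CPM in untreated cells (0.75 ± 0.04, adjusted p = 6.4e-15). Atf3, which encodes a stress-induced partner of Jun proteins, had 7.12 and 7.01 CPM with TNF and 3.33 and 3.86 CPM without (0.97 ± 0.12, adjusted p = 8e-07). The small Maf gene Maff (0.36 ± 0.07) and the Fos-family gene Fosl2 (0.23 ± 0.03) rose as well. All 5 calls held in every alternative analysis. In bulk RNA a change shared by all cells cannot be told apart from a change in some of them. The Fos-family member Fos itself was scarce, with 2.34 and 1.73 CPM in TNF-treated and 1.23 and 1.37 CPM in untreated cells, and was not called (0.62 ± 0.24, adjusted p = 0.22). Jund was not called either (0.31 ± 0.09, adjusted p = 0.16).

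Brakes on MAP kinase signalling rose beside them, with 6 rises and 0 falls among 16 tested (median 0.20). Dusp8 (ENSMUSG00000037887, chromosome 7, 142079490 to 142095843), which encodes a phosphatase that acts on JNK and p38, had 16.1 and 15.9 CPM in TNF-treated and 7.40 and 7.56 CPM in untreated cells (1.10 ± 0.10, adjusted p = 2.1e-11). Dusp1, which encodes a nuclear phosphatase of the same kinases, had 32.6 and 35 CPM with TNF and 20.6 and 20 CPM without (0.74 ± 0.06, adjusted p = 1.2e-12). Both calls held in every alternative analysis. Errfi1, which encodes an inhibitor of the EGF receptor, rose by 0.27 ± 0.04 and Dusp5, an ERK phosphatase gene, by 0.25 ± 0.04. The calls of Dusp6 (0.29 ± 0.07), an ERK phosphatase gene too, and of Spry2 (0.22 ± 0.05), which encodes a Sprouty inhibitor, depended on single libraries. That of Dusp6 was lost without any 1 of the 4. That of Spry2 was lost without either untreated library or TNF-treated library b, and with DESeq2's Wald test. The kinases these products act on did not move in step: of 16 JNK and p38 pathway kinase genes 0 rose, and the 1 called fall, Mapk9 (−0.17 ± 0.05), was lost without any 1 of the 4 libraries (adjusted p up to 0.33).

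The RefSeq promoter windows (GRCm38.p6, 250 bases before to 50 after the start) of Jun and Dusp8, the AP-1 and phosphatase genes with the largest rises, are shown because both hold TGACNTCA, the letters of a site for ATF and CREB factors and Jun dimers. Capitals mark the matches.
Jun, chr4:95052173-95052472, minus strand: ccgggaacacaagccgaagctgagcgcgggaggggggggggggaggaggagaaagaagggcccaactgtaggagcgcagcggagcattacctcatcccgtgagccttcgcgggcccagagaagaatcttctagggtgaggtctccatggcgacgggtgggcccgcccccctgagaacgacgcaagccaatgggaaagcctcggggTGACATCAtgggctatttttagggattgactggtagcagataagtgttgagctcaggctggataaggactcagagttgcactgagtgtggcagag
Dusp8, chr7:142095235-142095534, minus strand: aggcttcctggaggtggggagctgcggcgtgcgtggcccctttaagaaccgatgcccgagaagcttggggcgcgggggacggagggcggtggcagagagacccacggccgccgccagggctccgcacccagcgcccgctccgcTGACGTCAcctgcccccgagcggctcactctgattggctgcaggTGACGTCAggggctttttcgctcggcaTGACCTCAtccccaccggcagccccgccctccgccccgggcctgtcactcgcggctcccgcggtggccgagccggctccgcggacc
The Jun match reads TGACATCA and begins 45 bases before the start. The 3 Dusp8 matches begin 107, 63 and 36 bases before a start that lies 559 bases from the GENCODE start of the gene. Of the 20 named rises 18 had a window in the table, and 6 of them (33.3%) held TGACNTCA on either strand: Jun, Dusp8, Btg2, Dusp1, Plk2 and Rpl24. The share over 32851 windows of the same length was 8.83%. TGANTCA, the AP-1 letters, was in 3 of the 18 (16.7%) and in 7.81% of all windows. The Dusp1 window lay 53656 bases from the GENCODE start of its gene. Those of Atf3 and Zfp36, which held neither motif, lay 34706 and 1025 bases from theirs. The 2 motifs differ in spacing, and no match of one overlapped a match of the other in these 18 windows. The motifs were chosen after the values were seen, and a match is a description of letters.

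Outside AP-1, the 25 tested immediate-early genes counted 7 rises and 0 falls (median 0.07). Egr1, which encodes a zinc-finger factor induced by growth signals, had 41.4 and 43.9 CPM in TNF-treated and 33.9 and 33.4 CPM in untreated cells (0.35 ± 0.05, adjusted p = 3.2e-06). Ier5 (0.41 ± 0.06), Csrnp1 (0.38 ± 0.06), Ier2 (0.34 ± 0.05) and Klf6 (0.27 ± 0.04) rose in every alternative analysis as well. Calls of Sik1 (0.19 ± 0.04) and Myc (0.13 ± 0.03) were lost with DESeq2's Wald test on all libraries. They also depended on single libraries, any 1 of the 4 for Sik1 and either untreated library or TNF-treated library b for Myc. Growth arrest and stress genes had 7 rises and 0 falls among 20 (median 0.21). Ier3, which encodes a stress-induced regulator of survival, had 313 and 312 CPM with TNF and 214 and 220 CPM without (0.52 ± 0.03, adjusted p = 3.6e-17). Plk2, a polo-like kinase gene, had 192 and 196 CPM with TNF and 135 and 137 CPM without (0.51 ± 0.03, adjusted p = 2.5e-15). Both calls held in every alternative analysis. Btg2 (0.88 ± 0.16), an antiproliferative gene, Rhob (0.55 ± 0.07), a small GTPase gene, Mdm2 (0.30 ± 0.05), the p53 ligase gene, and Trib1 (0.30 ± 0.03), a pseudokinase gene, also rose. The rise of Ppp1r15a (0.24 ± 0.06) was lost without any 1 of the 4 libraries (adjusted p up to 0.37). Of 10 RNA-decay genes 3 rose and 0 fell: Zfp36l1 (0.44 ± 0.03) and Zfp36l2 (0.27 ± 0.03), which encode proteins that bind AU-rich elements in mRNA, and Zfp36, which encodes tristetraprolin (0.42 ± 0.11). The call of Zfp36 was lost without either untreated library or TNF-treated library a, with an adjusted p up to 0.34. Among named rises outside the lists, Phlda1 rose by 0.42 ± 0.05, while Tmem158 (0.52 ± 0.13) was lost without any 1 library (adjusted p up to 0.29). Rpl24 (0.45 ± 0.08) was lost without untreated library b (adjusted p = 0.12), and ribosomal protein genes share sequence with pseudogene copies that the counting could split.

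Few genes of the NF-κB lists were called. Of 13 tested NF-κB inhibitors and feedback genes 2 rose and 0 fell (median 0.02). Nfkbia (ENSMUSG00000021025, chromosome 12, 55489410 to 55492647), which encodes the inhibitor IκBα, had 55.5 and 54.2 CPM in TNF-treated and 33.5 and 33.1 CPM in untreated cells (0.72 ± 0.05, adjusted p = 6.4e-15). Tnfaip3, which encodes the ubiquitin-editing protein A20, had 18.7 and 19.0 CPM with TNF and 12.3 and 11.7 CPM without (0.65 ± 0.07, adjusted p = 5.7e-08). Their changes were close in size to those of Dusp1 and Junb. Of the 5 NF-κB subunit genes 0 rose and 0 fell (median 0.06), and Nfkb1 (0.05 ± 0.03), Nfkb2 (0.06 ± 0.03), Rel (0.08 ± 0.06) and Relb (0.10 ± 0.08) had adjusted p of 0.44 to 0.68. The 17 TNF receptor complex genes had 0 calls (median 0.00), with the receptor gene Tnfrsf1a at 59.8 and 63.2 CPM in TNF-treated and 60.0 and 62.8 CPM in untreated cells.

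Among 9 tested chemokine genes Cxcl1 alone rose and 0 fell (median 0.39, or 0.59 with members at 0 counts in a group set to their bound). Cxcl1 (ENSMUSG00000029380, chromosome 5, 90891241 to 90893115), which encodes a neutrophil attractant, had 21.3 and 20.7 CPM in TNF-treated and 8.81 and 6.81 CPM in untreated cells. It was the largest named rise, at 1.43 ± 0.10 (adjusted p = 9.9e-15), and held in every alternative analysis. Of 11 tested cytokine and effector genes 2 rose and 0 fell (median 0.11). Lif, which encodes a cytokine of the interleukin-6 family, had 12.1 and 12.1 CPM with TNF and 6.30 and 5.86 CPM without (0.99 ± 0.11, adjusted p = 1.4e-08). Ptgs2, which encodes cyclooxygenase-2, had 834 and 833 CPM with TNF and 565 and 578 CPM without (0.54 ± 0.02, adjusted p = 1.2e-20). Ptgs2 was the most abundant of the 20 named rises.

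The promoter windows of Cxcl1 and Nfkbia are shown because both genes rose in p65 KO cells and both windows hold the letters of an NF-κB site, searched as GGG, any 3 bases and TTCC. Capitals mark the matches.
Cxcl1, chr5:90890995-90891294, plus strand: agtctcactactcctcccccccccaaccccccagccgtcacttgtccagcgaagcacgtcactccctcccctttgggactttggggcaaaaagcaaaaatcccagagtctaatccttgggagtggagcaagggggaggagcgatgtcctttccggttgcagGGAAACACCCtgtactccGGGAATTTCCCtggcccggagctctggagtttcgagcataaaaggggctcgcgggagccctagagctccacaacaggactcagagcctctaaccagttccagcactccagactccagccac
Nfkbia, chr12:55492598-55492897, minus strand: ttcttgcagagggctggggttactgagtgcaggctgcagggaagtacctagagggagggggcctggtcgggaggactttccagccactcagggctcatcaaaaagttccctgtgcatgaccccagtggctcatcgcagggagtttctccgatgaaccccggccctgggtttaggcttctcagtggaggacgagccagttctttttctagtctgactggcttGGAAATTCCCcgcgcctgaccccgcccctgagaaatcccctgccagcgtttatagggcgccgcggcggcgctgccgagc
Of the 18 windows of named rises 3 (16.7%) held these letters on either strand, those of Cxcl1, Nfkbia and Tnfaip3, against 5.56% of all windows. In Cxcl1 a match on the minus strand begins 89 bases before the start and overlapping matches on both strands begin 71 and 70 bases before it.

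Most of the genes that TNF raised at least 2-fold in WT were not called in p65 KO. Of 182 genes that rose at least 2-fold in WT, 16 also rose in p65 KO, which is 8.79% of the WT list and 8.38% of the 191 p65 KO rises, and 1, Slc7a2, fell. Counting both directions, 1.8% of the genes changed at least 2-fold in WT. The median change of the 182 was 0.03 in p65 KO, 0.54 in IKK2 KO and 1.55 in WT. The 2 responses were compared by a contrast of differences, which called 7.08% of all genes (3.47% higher and 3.61% lower in p65 KO), and in 112 of the 182 genes the p65 KO response was called smaller. Choosing genes by their WT rise favours a smaller value elsewhere, so these counts describe the set. Ccl2, which encodes a monocyte attractant, had 2.74 and 2.66 CPM in TNF-treated and 1.6 and 1.95 CPM in untreated p65 KO cells (0.59 ± 0.18, adjusted p = 0.12), while in WT it had 61.7 and 63.2 CPM with TNF and 0.101 and 0.123 CPM without. The p65 KO response was smaller by a log2 difference of −8.43 ± 0.36 (adjusted p = 3.8e-22), and untreated p65 KO cells held more Ccl2 than untreated WT cells. Cxcl10, which encodes a T cell attractant, had 2.09 and 2.66 CPM in TNF-treated and 2.15 and 1.54 CPM in untreated p65 KO cells. These groups overlapped. In WT it had 6.69 and 5.82 CPM with TNF and 0.0507 and 0.205 CPM without, the latter from 1 and 5 counts. The difference from WT was −5.07 ± 0.44. Ccl7 had 1.44 and 0.604 CPM in TNF-treated and 0.548 and 0.332 CPM in untreated p65 KO cells (1.16, adjusted p = 0.12). In WT Ccl7 was at least 39.9-fold higher with TNF. That bound sets 102 counts against the limit of 3 counts over the untreated group that 0 counts allow.

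Cxcl10 is printed as the contrasting window, since it holds the NF-κB letters at 2 places and TGANTCA at 1 and the gene was not called in p65 KO. Capitals mark the 3 matches.
Cxcl10, chr5:92348840-92349139, minus strand: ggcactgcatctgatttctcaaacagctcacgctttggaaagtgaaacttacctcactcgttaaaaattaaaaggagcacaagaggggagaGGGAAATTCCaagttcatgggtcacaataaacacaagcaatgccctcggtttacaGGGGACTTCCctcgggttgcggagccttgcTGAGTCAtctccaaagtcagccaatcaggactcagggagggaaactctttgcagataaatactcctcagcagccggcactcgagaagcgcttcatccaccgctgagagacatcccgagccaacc
Of the 10 largest WT rises 7 had a window, and Ccl2, Ccl7 and Vcam1 had none. The NF-κB letters were in 4 of the 7 (57.1%), TGANTCA in 3 (42.9%) and TGACNTCA in 0. The shares over all windows were 5.56, 7.81 and 8.83%. Tnfaip3 and Nfkbia, which held the NF-κB letters, are also among the named p65 KO rises, so the 2 sets of genes overlap.

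The adhesion gene Vcam1 had 19.3 and 19.7 CPM in TNF-treated and 17.0 and 17.8 CPM in untreated p65 KO cells (0.16 ± 0.07, adjusted p = 0.27), with a difference from WT of −4.81 ± 0.12. The transcription factor gene Irf1 stood at 12.9 and 13.4 CPM with TNF and 14.5 and 14.2 CPM without (−0.12 ± 0.08, adjusted p = 0.57), with a difference of −4.58 ± 0.11. Traf1, Nfkbie and Bcl3, an adaptor and 2 IκB-family genes, were not called in p65 KO either, and their differences from WT were −3.67 ± 0.24, −3.97 ± 0.23 and −3.74 ± 0.25. The genes that did rise in p65 KO often rose more in WT: the difference was −3.88 ± 0.07 for Nfkbia, −5.34 ± 0.11 for Tnfaip3, −2.19 ± 0.13 for Zfp36, −2.01 ± 0.06 for Egr1 and −1.37 ± 0.14 for Lif. Of the 20 named rises 11 were called smaller in p65 KO than in WT and 4 larger. For Cxcl1 the difference of −3.18 ± 0.96 rested on 26 counts in TNF-treated and 1 in untreated WT cells, and was lost without untreated WT library b or TNF-treated WT library b (adjusted p up to 0.33). The Atf3 difference of −1.28 ± 0.36 was lost without any 1 WT library or untreated p65 KO library b. DESeq2's Wald test on all libraries also lost the Cxcl1 and Atf3 differences. Among the 4 larger responses, the Rpl24 difference (0.42) was lost without untreated p65 KO library b. The Egr1 difference was not put to the alternative analyses.

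**Figure D2:**
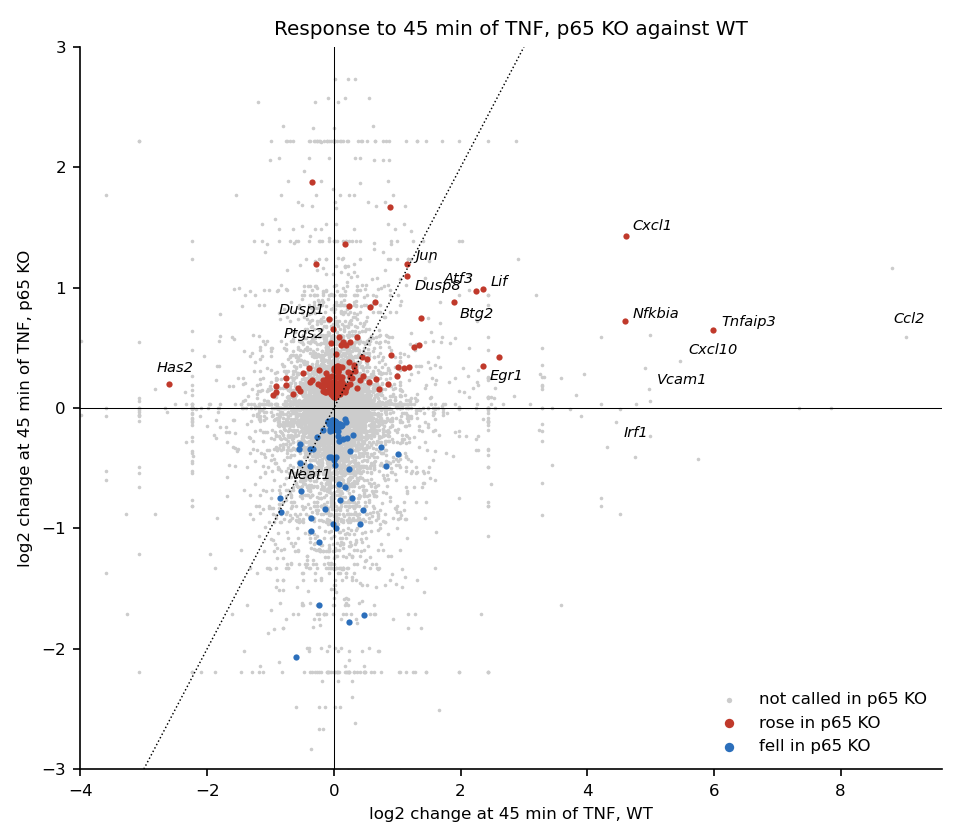
Log2 change at 45 min of TNF in p65 KO (vertical axis) against WT (horizontal axis), 1 point per gene; red and blue points rose and fell in p65 KO, grey points were not called, the dotted line marks equal change, and 109 genes lie outside the axes. Jun and Dusp8 lie on the line, Nfkbia and Tnfaip3 far to its right, and Irf1 (−0.12), Vcam1 (0.16) and Ccl2 (0.59) are grey and close to the horizontal axis.

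Jun and Dusp8 were the large rises for which no difference from WT was detected. Jun changed by 1.20 ± 0.05 in p65 KO and 1.16 ± 0.03 in WT (difference 0.05 ± 0.06, adjusted p = 0.76), although its level was 92.3 and 88.8 CPM in TNF-treated p65 KO cells and 332 and 336 CPM in TNF-treated WT cells. Dusp8 changed by 1.10 ± 0.10 in p65 KO and 1.16 ± 0.08 in WT (difference −0.06 ± 0.13, adjusted p = 0.87). The differences of Phlda1 (−0.03 ± 0.07), Ier5 (−0.11 ± 0.08), Ccn1 (0.01 ± 0.04) and Maff (0.05 ± 0.09) were not called either. A p that misses the threshold does not show equal responses, and the standard errors give the size that could have been missed.

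Ptgs2 and Dusp1 rose in p65 KO and were not called in WT. Ptgs2 had 1490 and 1510 CPM in TNF-treated and 1550 and 1550 CPM in untreated WT cells, and the p65 KO response was larger by 0.59 ± 0.03 (adjusted p = 9.7e-18). Dusp1 had 36.2 and 35.2 CPM in TNF-treated and 37.6 and 37.8 CPM in untreated WT cells, and the p65 KO response was larger by 0.82 ± 0.08 (adjusted p = 8.7e-11). Both genes stood higher in untreated WT than in untreated p65 KO cells. Growth factor and SRF/YAP target genes had 10 rises and 0 falls among 25 in p65 KO (median 0.09), against 8 rises and 12 falls in WT (median −0.08), where 5.73% of all genes rose and 6.45% fell. Ccn1, a matrix-associated signalling gene, had 382 and 387 CPM in TNF-treated and 306 and 303 CPM in untreated p65 KO cells (0.34 ± 0.03). Plau, the urokinase gene, rose by 0.29 ± 0.03 and Ereg, an EGF receptor ligand gene, by 0.26, while the rise of the urokinase receptor gene Plaur (0.20) was lost without untreated library a or TNF-treated library a (adjusted p up to 0.077). These 4 genes also rose in WT, Ccn1 by 0.32, Plau by 0.26, Ereg by 0.25 and Plaur by 0.26, and their differences from WT were not called. Hbegf, which encodes a ligand of the EGF receptor, had 46.9 and 49.8 CPM with TNF and 39.4 and 38 CPM without (0.33 ± 0.05), and fell in WT (−0.40), a difference of 0.72 ± 0.06 (adjusted p = 4.2e-13).

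Opposite calls in p65 KO and WT were made for 13 list members. Dusp5 (difference 1.01 ± 0.05) and Amotl2 (0.46 ± 0.05) rose in p65 KO and fell in WT like Hbegf, and these rises held in every alternative analysis. The p65 KO rises of Has2 (0.20 ± 0.04), a hyaluronan synthase gene, Vegfa (0.18 ± 0.05), Ankrd1 (0.23 ± 0.05), Dusp6 and Sik1 did not hold when single libraries were left out. The adjusted p was 0.061 for Has2 without TNF-treated library b, and reached 0.11 for Ankrd1 without either library b, and 0.32 for Vegfa without any 1 of the 4. Their differences from WT were 2.81 ± 0.12 for Has2, 1.10 ± 0.06 for Vegfa, 0.40 ± 0.06 for Ankrd1, 0.77 ± 0.08 for Dusp6 and 0.40 ± 0.08 for Sik1. Of these differences and those of Dusp5 and Amotl2, only that of Has2 was put to the alternative analyses, where it held. Has2 had 93.5 and 94.7 CPM in TNF-treated and 81.5 and 82.0 CPM in untreated p65 KO cells, while in WT it had 3.62 and 2.97 CPM with TNF and 20 and 20.4 CPM without. The remaining WT falls named by size, Dok7, Atoh8, Smad9 and Snai1, changed by 0.13, −0.01, −0.03 and −0.16 in p65 KO and were not called. Over all 191 p65 KO rises, WT also rose in 45, fell in 28 and was not called in 118. The responses were called different in 94, with p65 KO higher in 71. Choosing genes by their p65 KO rise favours a higher value in p65 KO, so these counts describe the set.

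**Figure D3:**
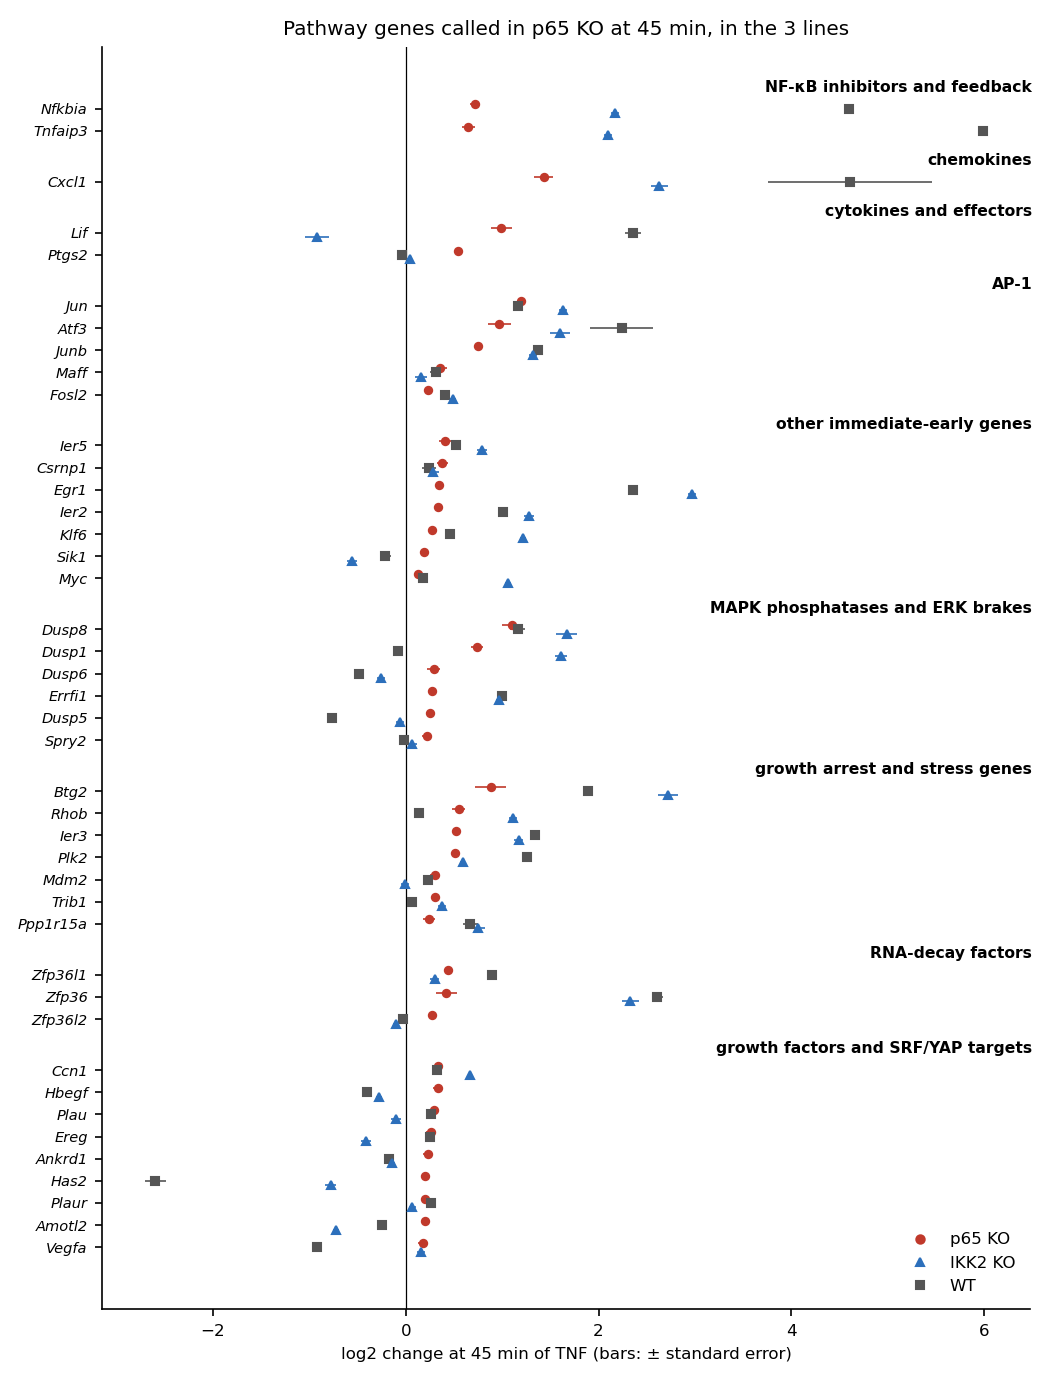
Log2 change at 45 min of TNF ± standard error in p65 KO (red circles), IKK2 KO (blue triangles) and WT (grey squares) for members called in p65 KO of the 9 lists named on the plot. Each of these lists had rises and 0 falls, so the p65 KO values shown lie above 0, while the NF-κB feedback genes reach 4.60 and 5.99 in WT, and several growth factor genes lie below 0 in WT.

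Set against IKK2 KO, which lacks the kinase that frees NF-κB from its inhibitor, the p65 KO response differed in 5.91% of genes (3.67% higher and 2.24% lower in p65 KO), a count of 965 that was 615 without untreated p65 KO library b. The part of Ikbkb deleted in that line is not given in the labels, so its level was not used to check the line. Of the 191 p65 KO rises, 38 also rose in IKK2 KO and 31 fell there, where 3.33% and 5.43% of all genes did so. Lif rose in p65 KO and fell in IKK2 KO, to 7.15 and 5.12 CPM with TNF against 12.4 and 10.6 CPM without, a difference of 1.92 ± 0.16. Egr1 rose by 0.35 in p65 KO and 2.97 in IKK2 KO (difference −2.62 ± 0.06), and Zfp36 by 0.42 and 2.33 (difference −1.91 ± 0.14). Traf1 (−1.87 ± 0.20) and Egr2 (−1.89 ± 0.40) also responded less in p65 KO. Egr2 had only 15 and 26 counts in TNF-treated and 9 and 18 in untreated p65 KO cells. Its difference was lost without untreated p65 KO library b. Atoh8 (3.51 ± 0.39), Lfng (1.64 ± 0.17), Smad6 (1.59 ± 0.15) and Id2 (1.47 ± 0.07) fell in IKK2 KO and were not called in p65 KO. The Atoh8 value rested on 6 and 4 counts in TNF-treated IKK2 KO cells. Jun rose by 1.63 ± 0.04 in IKK2 KO, more than in p65 KO (difference −0.43, adjusted p = 2.1e-06).

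The 80 falls in p65 KO comprised 47 protein-coding genes, 13 intronic or unconfirmed features, 12 long non-coding RNAs and 8 small RNAs. Of 8 nuclear long non-coding RNAs 0 rose and 4 fell (median −0.34). Neat1, the scaffold RNA of paraspeckles, had 70.6 and 73.4 CPM in TNF-treated and 100 and 99.0 CPM in untreated cells (−0.47 ± 0.04, adjusted p = 1.9e-10). Xist, the X-inactivation RNA, had 361 and 356 CPM with TNF and 472 and 483 CPM without (−0.41 ± 0.03, adjusted p = 3.3e-13), and Kcnq1ot1, an imprinted antisense RNA, fell by 0.43 on the log2 scale. The strand setting of the counting is not given in the sources used here, so reads of Xist, Kcnq1ot1 and Dnm3os cannot be told apart from those of genes on the opposite strand. The calls of Neat1, Xist and Kcnq1ot1 held in every alternative analysis, while that of Malat1 (−0.26 ± 0.04) was lost without TNF-treated library a (adjusted p = 0.078). Of 9 small RNA genes 3 fell and 0 rose: Rny3, a Y RNA (−0.96 ± 0.14), Rprl3 (−0.36 ± 0.04) and Rn7sk, the 7SK RNA that holds P-TEFb inactive (−0.16 ± 0.02). Rny3 had 7.82 and 6.56 CPM in TNF-treated and 13 and 14.6 CPM in untreated cells. Dnm3os, a long non-coding RNA, fell by 0.46 on the log2 scale in every alternative analysis. Of the other named falls, Gabre (−0.51), Kcnj2 (−0.48), Cavin4 (−0.48), Slc7a2 (−0.38), Ftx (−0.34), Lncpint (−0.34), Nfil3 (−0.30) and Spaca6 (−0.24) did not hold when single libraries were left out. The adjusted p then reached 0.15 (Kcnj2), 0.22 (Gabre), 0.28 (Ftx), 0.32 (Lncpint and Spaca6), 0.37 (Slc7a2) and 0.57 (Cavin4 and Nfil3), and each of the 4 libraries decided at least 1 of these calls.

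Gene class and transcript length moved with the direction of change. Among 1151 intronic or unconfirmed (TEC) features 13 fell and 0 rose, and their median was −0.35, against 0.00 for 12315 protein-coding genes, of which 166 rose and 47 fell. The protein-coding genes that rose had a median exon length of 3040 bp and those that fell 9180 bp, with 4520 bp over all tested. When protein-coding genes were split by exon length into 5 groups of like size, 61 rose and 10 fell in the shortest group, and 9 rose and 27 fell in the longest. Cytosolic ribosomal protein genes, a set taken after the values were seen, had 15 rises and 1 fall among 80 (median 0.05). The coding share of the counts was 85.0 and 85.1% in TNF-treated libraries, against 82.9 and 83.0% in untreated libraries, and the part of length, of unspliced RNA or of these shares in the small changes was not tested. Of the 13 mitochondrial mRNAs 2 fell and 0 rose (median −0.08). Both calls, mt-Nd2 (−0.13 ± 0.03) and mt-Co1 (−0.12 ± 0.03), were lost without untreated library b or either TNF-treated library. That of mt-Nd2 was also lost with the 6 p65 KO libraries alone and with protein-coding genes alone.

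**Figure D4:**
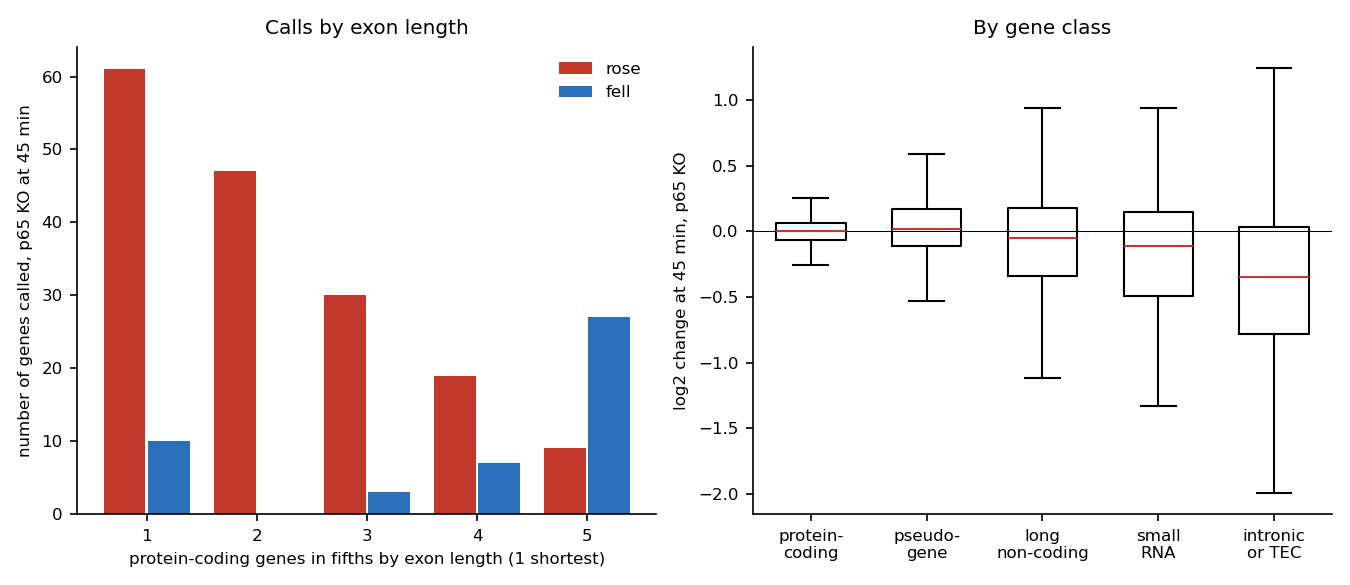
Left, protein-coding genes that rose (red) or fell (blue) in p65 KO at 45 min, in 5 groups by exon length from shortest to longest; right, log2 change in p65 KO by gene class (box, quartiles; red line, median; whiskers, values within 1.5 interquartile ranges). Rises run from 61 in the shortest to 9 in the longest group, and the intronic or TEC class has the lowest median, −0.35.

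Several other groups showed few calls. Of 10 survival genes 1 rose and 0 fell (median 0.08), the apoptosis inhibitor gene Mcl1 (0.17 ± 0.03), which was lost without untreated library b or TNF-treated library b (adjusted p up to 0.14). Of 16 cholesterol synthesis genes 1 rose and 0 fell, Insig1 (0.17 ± 0.04), whose adjusted p reached 0.48 without untreated library b or either TNF-treated library. Of 19 cell cycle genes 0 rose and 1 fell, the proliferation marker gene Mki67, with 794 and 815 CPM in TNF-treated and 889 and 894 CPM in untreated cells (−0.15 ± 0.02, adjusted p = 7e-05). The 13 tested histone genes had 2 rises and 0 falls, Hist1h2bk and Hist2h4 (0.14 each), whose adjusted p reached 0.62 and 0.44 when single libraries were left out, and copies of histone genes share sequence. Interferon-stimulated genes (14 tested, median 0.04), heat-shock and ER-stress genes (11, median 0.00) and subunits of the SWI/SNF chromatin remodeller (18, median −0.04) had 0 calls by edgeR, with 2, 0 and 3 members at an unadjusted p under 0.05. Over all 16322 genes tested, 2046 had an unadjusted p under 0.05 by the same test, so these members do not mark the lists out.

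By 90 min the p65 KO response had spread to 6.48% of the genes, and 2.73% differed between 90 and 45 min, 371 higher (2.27%) and 74 lower (0.453%) at 90 min. The 445 calls between 90 and 45 min became 226 and 181 without 90 min library a or b, and 187 and 164 without 45 min library a or b. These comparisons share libraries with the 45 min step, so their values are set side by side. Jun had 40.0 and 38.6 CPM at 0 min, 92.3 and 88.8 CPM at 45 min and 96.6 and 89.8 CPM at 90 min, a difference of 0.04 ± 0.04 between 90 and 45 min (adjusted p = 0.71). Lif reached 22.6 and 23.5 CPM at 90 min (0.93 ± 0.08 over 45 min, adjusted p = 1.8e-11). Chemokine genes not called at 45 min were called later: Ccl2 reached 5.01 and 5.49 CPM (0.96 ± 0.14 over 45 min, adjusted p = 1e-05) and Cxcl10 5.20 and 4.63 CPM (1.03 ± 0.16, adjusted p = 4.1e-05). Vcam1 (0.41 ± 0.06) and Traf1 (0.80 ± 0.10) were likewise higher at 90 than at 45 min. Of the 9 chemokine genes 5 were called higher and 1 lower at 90 min than untreated, where 4.06% of all genes were called higher. Neat1 turned round, with 144 and 152 CPM at 90 min, above both earlier times (1.04 ± 0.04 over 45 min, adjusted p = 1.5e-22), and Xist and Kcnq1ot1 were also higher at 90 than at 45 min (0.61 ± 0.03 and 0.73 ± 0.05). Creb5, a gene of the CREB and ATF family, was higher by 0.88 ± 0.08 at 90 min. Among genes lower at 90 min, Mylip (−0.59 ± 0.11), a ubiquitin ligase gene, held in every alternative analysis, while Alkbh2 (−0.63), Tec (−0.54), Sertad3 (−0.48) and Tldc1 (−0.48) did not (adjusted p up to 0.58, 0.14, 0.43 and 0.46).

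**Figure D5:**
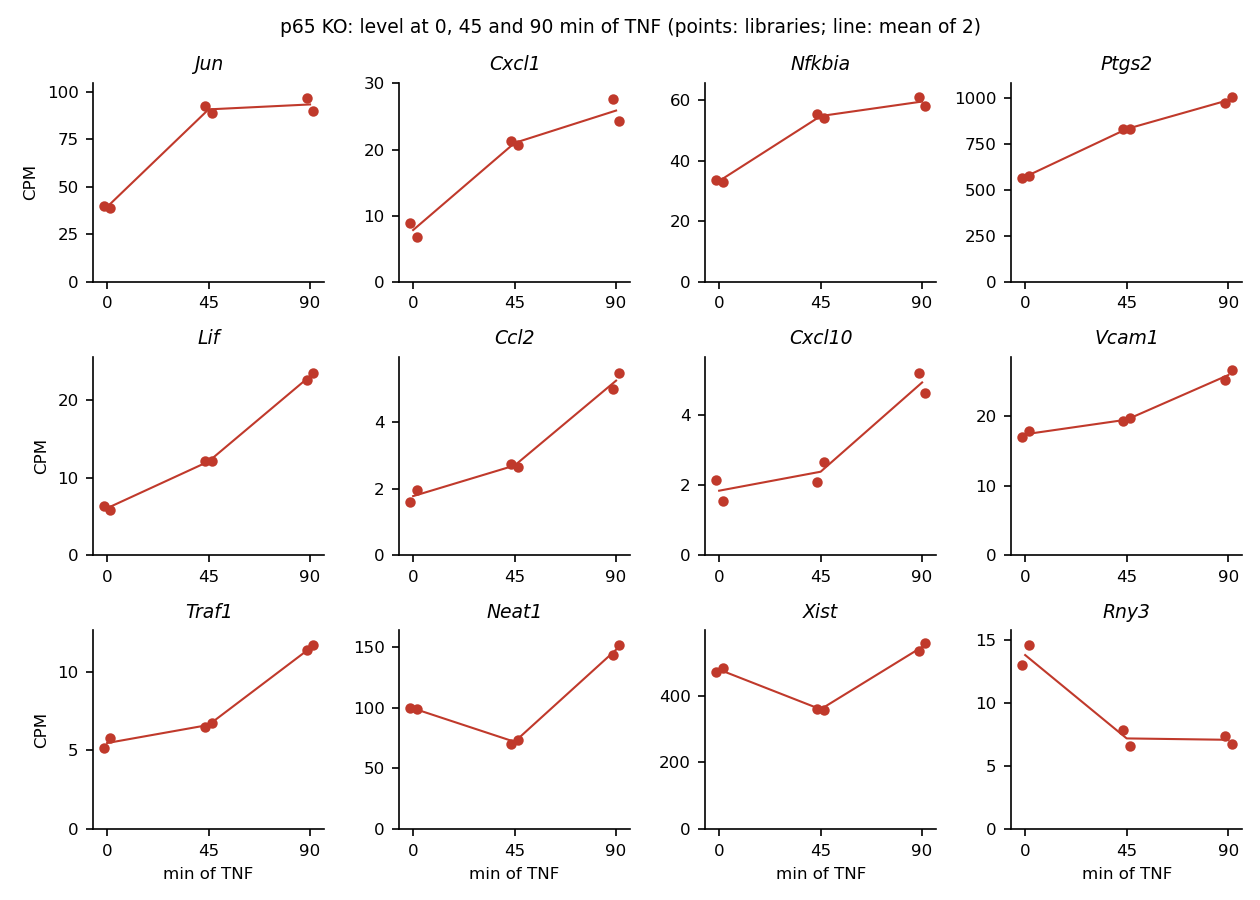
CPM (linear axis from 0) in p65 KO cells at 0, 45 and 90 min of TNF for 12 genes; points are libraries and lines join the means of 2. Jun is at its 90 min level by 45 min, Ccl2 and Cxcl10 are highest at 90 min, and Neat1 and Xist are lowest at 45 min.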

How the data were processed

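Total RNA of 18 libraries (9 groups of 2) was sequenced as paired ends after a directional preparation, per the labels' protocols. The authors deposited 1 table of expected counts per gene (55536 genes), with 31.8% of the non-zero values fractional; alignment to GRCm38 with HISAT2 and counting with featureCounts (Subread 1.6.2) are named in the submitters' processing notes, beside edgeR 3.26.4, FastQC 0.11.8 and Trimmomatic. Not given in the sources used here are the counting's strand setting and its handling of multi-mapping reads. Columns name the group and carry a code absent from the labels, and the libraries of a group were named a and b in column order.

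Values were rounded to whole counts. Genes were kept with filterByExpr (16322 kept, 0.0601% of counts lost), libraries were scaled by TMM, and edgeR 4.0.16 in R 4.3.3 fitted 1 coefficient per group over all 18 libraries with the robust quasi-likelihood test (9 residual degrees of freedom, biological coefficient of variation 1.93%), adjusted within each contrast. Responses of lines were compared by contrasts of differences. Symbols and positions came from GENCODE M21. Promoter windows came from RefSeq (GRCm38.p6). Python 3.11.15 with matplotlib 3.10.9 drew the figures. In simulated data for the 45 min step in p65 KO (14148 genes), 90% of genes planted at 1.5-fold and 100% at 2-fold were recovered, with 12 false calls of 207. Counts were drawn with the dispersions fitted to these data, and every group had the untreated p65 KO means. Changes were planted only in genes of 2 CPM or more, so these rates hold only under the fit's own assumptions.

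The genes named were Rela, the 20 largest rises and 15 largest falls (adjusted p under 0.05, groups that did not overlap, a mean of 2 CPM or more in the higher one, and no predicted or clone symbol), the 10 largest WT rises and 5 falls, 5 in each direction for IKK2 KO and for 90 against 45 min, called list members, and abundant members of lists with few calls. Fos and Jund fall outside this rule and were added after their values were seen. Of the genes the rule names, 2 are not reported here. The members, lists and rule were chosen with earlier results of these data known. Alternatives were DESeq2 1.42.0 (Wald test and size factors), other filters, rounding down, protein-coding genes alone, fits on fewer libraries and leaving out 1 library at a time. A call "held" where it was made in each of these.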

Additional observations from a re-analysis of the deposited data

Results flagged for a closer look

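The responses to 45 min of TNF differed between lines, by the contrast of differences with edgeR, for the genes below, with 46 differences from WT and 10 from IKK2 KO. Values are log2 differences, p65 KO response minus that of the other line.

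Against WT the response was smaller in p65 KO for the NF-κB feedback, chemokine and adhesion genes Ccl2 (-8.43), Ccl7 (-7.65, a fitted value that is no bound, since untreated WT cells had 0 counts), Tnfaip3 (-5.34), Cxcl10 (-5.07), Vcam1 (-4.81), Irf1 (-4.58), Nfkbie (-3.97), Nfkbia (-3.88), Bcl3 (-3.74), Traf1 (-3.67) and Cxcl1 (-3.18). It was also smaller for the immediate-early, stress and RNA-decay genes Zfp36 (-2.19), Egr1 (-2.01), Lif (-1.37), Atf3 (-1.28), Btg2 (-1.01), Ier3 (-0.81), Plk2 (-0.75), Junb (-0.61) and Zfp36l1 (-0.46). RNAs that fell in p65 KO differed from WT as well: Slc7a2 (-1.39), Rny3 (-1.37), Kcnj2 (-1.30), Rprl3 (-0.61), Neat1 (-0.49), Xist (-0.45), Kcnq1ot1 (-0.43), Malat1 (-0.41) and Mki67 (-0.27).

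The response was higher in p65 KO than in WT for Has2 (2.81), Dok7 (2.47), Atoh8 (2.16), Smad9 (1.80) and Snai1 (1.55), all of which fell in WT. It was also higher for Vegfa (1.10), Dusp5 (1.01), Dusp1 (0.82), Dusp6 (0.77), Hbegf (0.72), Ptgs2 (0.59), Amotl2 (0.46), Rpl24 (0.42), Rhob (0.41), Sik1 (0.40), Ankrd1 (0.40) and Hist1h2bk (0.31).

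Against IKK2 KO the p65 KO response was higher for Atoh8 (3.51), Lif (1.92), Lfng (1.64), Smad6 (1.59) and Id2 (1.47), and lower for Egr1 (-2.62), Zfp36 (-1.91), Egr2 (-1.89), Traf1 (-1.87) and Jun (-0.43).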

How the results depend on the processing

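The 271 genes called at 45 min in p65 KO became 39 at a change of at least 1.5-fold, 155 with DESeq2's Wald test (145 of them shared), 533 when the 4 libraries compared were fitted alone and 434 with the 6 p65 KO libraries, and ranged from 97 to 186 without 1 library. The difference from WT (1156 genes) became 372 at 1.5-fold and 691 with the Wald test, and ranged from 853 to 999 without 1 library. The difference from IKK2 KO (965) became 193 and 524, and ranged from 615 to 881. The difference of 90 from 45 min (445) became 82 and 174, and ranged from 164 to 226. The cause of these shifts was not tested. Other scaling, other filters, rounding down and protein-coding genes alone left each count within 1.5 times, and no called value of a named gene changed sign. Of 70 named calls at 45 min 41 held throughout, as did 33 of 36 differences from WT. The differences lost were those of Cxcl1, Atf3 and Rpl24. Not put to the alternatives were the differences from WT of Egr1, Dusp5, Dusp6, Hbegf, Vegfa, Amotl2, Ankrd1, Sik1, Mki67 and Hist1h2bk. That of Jun from IKK2 KO was not tried either. No paired analysis was possible because the columns carry library codes that are in no label. Depth limits genes of about 1 CPM: Ccl7 and Fos rest on few counts, as do Cxcl1, Ccl2 and Cxcl10 in untreated WT cells. The same holds for Egr2 in p65 KO cells, Atoh8 in TNF-treated IKK2 KO cells and Dok7 in WT cells given TNF for 45 min (14 and 2 counts).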
